A study of Homo sapiens with 6 samples.

Results

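The 7 genes described here, NEAT1, MALAT1, MIR210HG, PVT1, TUG1, NORAD and CYTOR, are long noncoding RNA genes that are abundant in many cells or have been linked to hypoxia. They were taken by gene name, by matching the transcripts of each library to the annotation of GENCODE release 44, and are 7 of 62252 genes summed over the series. All 7 were among the 26074 genes tested. That annotation classes 6 of them as long noncoding RNA genes and gives TUG1 the type protein-coding. The series asked how low iron availability changes RNA in K562, a line of erythroid leukemia cells. Cells were kept overnight in 10 µM 21H7, an iron chelator that enters cells (Chelator, n = 3), or in a matched volume of the solvent DMSO alone (DMSO, n = 3). Polyadenylated RNA was sequenced as paired-end reads. All libraries come from 1 cell line, and the chelator was used at 1 dose and 1 time, with 3 biological replicates in each group per the design.

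Long noncoding RNAs are transcribed and usually spliced and capped like mRNAs but act as RNA. NEAT1 is the scaffold of paraspeckles, nuclear bodies built on its long isoform, and MALAT1 gathers in nuclear speckles near splicing factors. MIR210HG is the host transcript of the microRNA miR-210, a classic target of the hypoxia-inducible factors (HIFs), whose oxygen sensors, the prolyl hydroxylases, need iron. PVT1 lies beside MYC, TUG1 and CYTOR are linked to growth, and NORAD binds Pumilio proteins in the cytoplasm. The long NEAT1 isoform and mature MALAT1 end in a triple helix in place of a poly(A) tail, so selection of polyadenylated RNA captures them in part, and the part of this in the values below was not tested.

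The libraries held 78.6 to 90.4 M estimated counts in DMSO and 85.4 to 101 M in Chelator (M, 1e+06 counts). The difference between transcript length and effective length, a reading of fragment length, had medians between 252 and 264 bases for DMSO and between 200 and 218 for Chelator, without overlap, so an effect of the treatment and one of fragment length cannot be told apart. All 10 erythroid markers of K562 were at 1 TPM or more in every library, with a summed level of 12391 to 13735 TPM in DMSO and 17528 to 18717 TPM in Chelator, and 5 of them rose and 3 fell. Of 12 markers of other cell types, 6 reached 1 TPM in every library, among them EPCAM, LYZ and CD3D, MS4A1 was at 0 throughout, and their summed level was 99.5 to 104 TPM in DMSO and 113 to 124 TPM in Chelator. Of the 10 of these with an adjusted p, 5 rose and 3 fell, where 19.5% and 18.3% of all genes did. COL1A1, CD3D and CD3E had log2 fold changes of 1.60, 1.59 and 1.97, and the lowest value in the set was -0.81. The part of either set in the results was not tested.

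In TPM (transcripts per 1e+06, that is counts per unit of transcript length scaled to the same sum in each library), 6 of the 7 genes ranked in the top 100 in DMSO when set against 10757 detected long noncoding RNA genes, which do not include TUG1 by its annotated type. MALAT1 was highest with a mean of 152 ± 31.7 TPM (SD, n = 3), followed by NORAD with 141 ± 18.9 and CYTOR with 105 ± 4.45. PVT1 with 53.4 ± 1.08, TUG1 with 50.04 ± 8.05 and NEAT1 with 43.2 ± 6.25 followed. The values of MALAT1 and NORAD overlapped, as did those of PVT1 with TUG1 and of TUG1 with NEAT1. MIR210HG stood far below with 0.276 ± 0.0710 TPM. In Chelator the order was MALAT1 with 160 ± 77.4 TPM, CYTOR with 150 ± 3.54, NEAT1 with 137 ± 28.1, NORAD with 103 ± 8.05, PVT1 with 82.0 ± 4.02, TUG1 with 39.0 ± 1.96 and MIR210HG with 3.04 ± 0.383. In that group MALAT1 overlapped CYTOR, NEAT1 and NORAD, and NEAT1 overlapped CYTOR and NORAD.

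**Figure D1:**
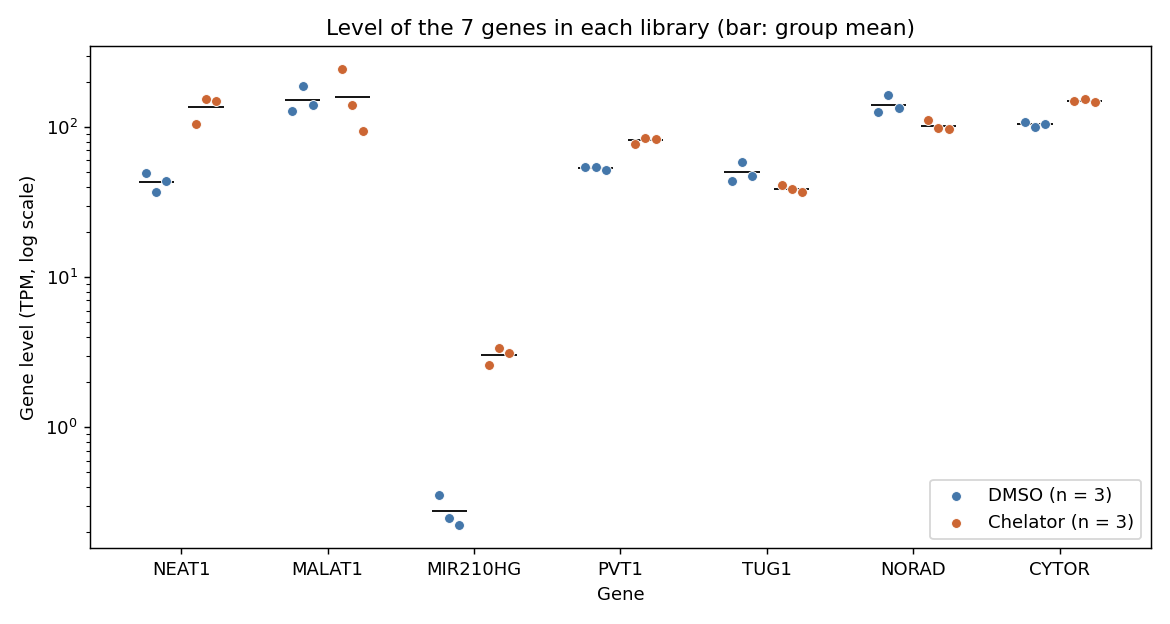
Level of each of the 7 genes in each library in TPM, on a log axis, with DMSO in blue, Chelator in orange and a bar at each group mean (n = 3 per group). The groups are apart for NEAT1, MIR210HG, PVT1, TUG1, NORAD and CYTOR and overlap for MALAT1, whose Chelator values run from 94.1 to 245 TPM.

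Compared with DMSO, 4 of the 7 genes rose in Chelator (NEAT1, MIR210HG, PVT1 and CYTOR) and 2 fell (TUG1 and NORAD) at an adjusted p under 0.05 in DESeq2's Wald test, while MALAT1 did not pass. Over all 24542 genes with an adjusted p, 19.5% rose and 18.3% fell at that threshold, and among the 6788 long noncoding RNA genes 10.9% rose and 7.1% fell. With an absolute log2 fold change above 1 required as well, which is the meaning of "called" from here on, NEAT1 and MIR210HG were called higher and none of the 7 was called lower. The background for that rule was 8.18% called higher and 2.6% called lower over all genes, and 6.38% and 3.05% over long noncoding RNA genes. The median log2 fold change was 0.02 over all genes and 0.05 over long noncoding RNA genes. When the test itself asked for an absolute log2 fold change above 1, MIR210HG alone of the 7 passed.

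**Figure D2:**
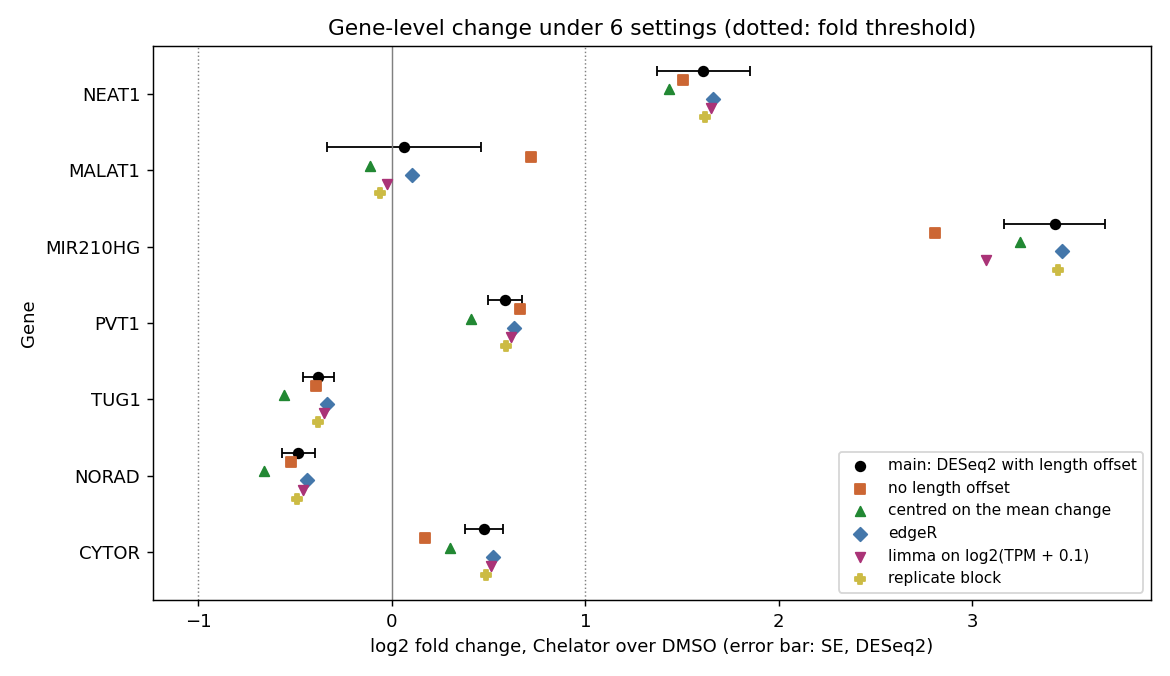
The log2 fold change of Chelator over DMSO for each of the 7 genes, with black circles and SE bars for DESeq2 with an offset for transcript length and other symbols for 5 other settings, and with dotted lines at the fold threshold. NEAT1 and MIR210HG lie beyond the threshold in every setting drawn, and MALAT1 lies on both sides of 0, at 0.72 without the offset and at -0.11 when centred on the mean change.

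NEAT1 (ENSG00000245532.11, chr11:65422774-65445540, plus strand, GRCh38) rose 3.05-fold. Its estimated counts were 10341, 8147 and 7812 in DMSO and 22897, 36133 and 28880 in Chelator, and its levels were 49.2, 36.7 and 43.8 TPM against 104, 155 and 151 TPM. Every Chelator library was above every DMSO library, and the lowest Chelator library was replicate 1. The log2 fold change was 1.61 (SE 0.24, 95% interval 1.14 to 2.08, DESeq2 adjusted p = 3.0e-10), and the adjusted p was 0.32 when tested against a log2 fold change of 1. NEAT1 moved from rank 62 to rank 22 among long noncoding RNA genes. Since whole cultures were sequenced, more RNA per cell and a larger share of cells with the RNA cannot be told apart, here or for the other genes.

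NEAT1 has 9 transcripts in the files, and its reads were given mainly to 4 that end within the first kilobases of the gene. NEAT1-203, a 3524-base transcript with 1 intron, had 8.44, 9.32 and 11.2 TPM in DMSO and 34.4, 49.8 and 51.2 TPM in Chelator, and it rose by 2.17 on the log2 scale (SE 0.19, adjusted p = 1.2e-28 in DESeq2). NEAT1-204, the 1053-base transcript, rose by 1.55 on the log2 scale (SE 0.27), NEAT1-201 by 1.26 (SE 0.26) and NEAT1-207 by 1.18 (SE 0.29). The adjusted p of these 3 were 1.6e-07, 1.6e-05 and 3.5e-04 with DESeq2, and that of NEAT1-207 was 0.060 with edgeR. All 4 were called higher, where 6.61% of all transcripts with an adjusted p were. With 1 library left out, the log2 fold change of NEAT1-207 went as low as 0.95, under the fold threshold.

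The long isoform NEAT1-202, which runs 22743 bases as a single exon and is the one that builds paraspeckles, did not pass. It fell outside the rule for named transcripts and was chosen after its values were seen. Its counts were 1435, 2715 and 987 in DMSO and 1893, 4956 and 1537 in Chelator, and its levels were 0.866, 1.96 and 0.701 TPM against 1.11, 2.81 and 1.04 TPM. The groups overlapped, with replicate 2 highest in both. Its log2 fold change was 0.48 (SE 0.47, DESeq2 adjusted p = 0.58), and its share of NEAT1 TPM was 1.76%, 5.33% and 1.60% in DMSO and 1.07%, 1.81% and 0.69% in Chelator. Of its distinct stretches of 31 bases, 83.7% occur in no other NEAT1 isoform with counts, so its reads can be told from those of the short isoforms, whereas for NEAT1-201, NEAT1-203, NEAT1-204 and NEAT1-207 this share is between 0.704% and 2.64%.

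**Figure D3:**
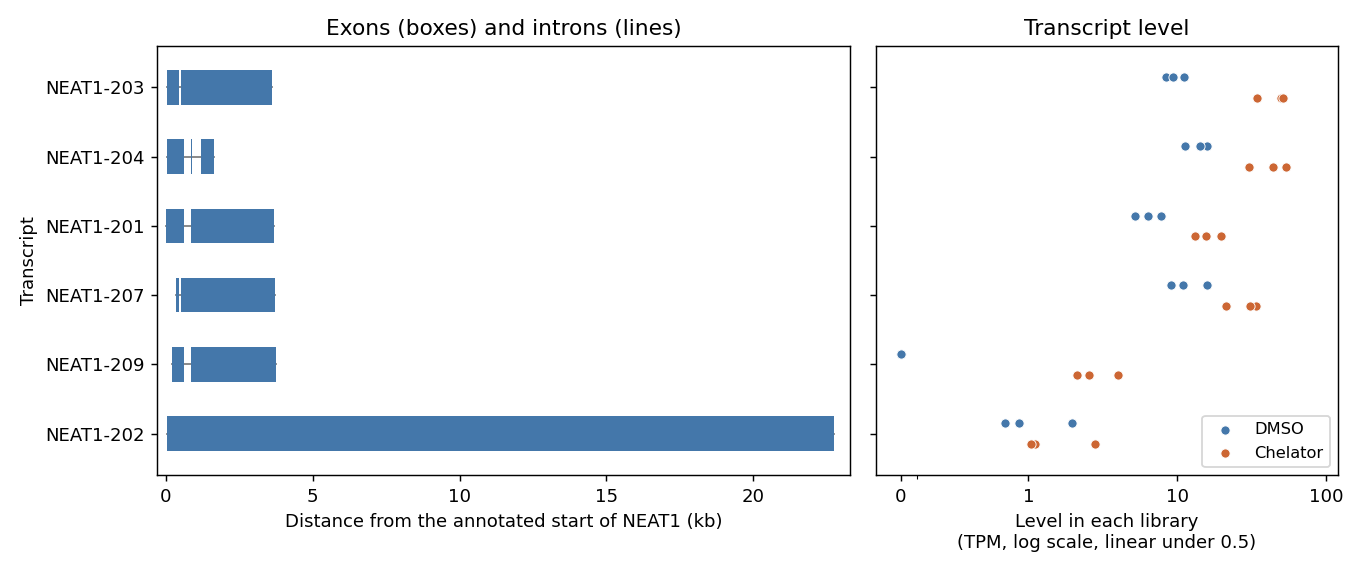
Left, exons and introns of 6 NEAT1 transcripts by distance from the annotated start of the gene in kb. Right, the level of each in every library in TPM, on a log axis that is linear under 0.5, with DMSO in blue and Chelator in orange: the 4 main short transcripts are apart between groups, NEAT1-209 is at 0 in DMSO, and the NEAT1-202 values overlap.

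NEAT1-209, also chosen after its values were seen, had 0 counts in all DMSO libraries and 517, 656 and 859 in Chelator. None of its 31-base stretches is its own, so the division of reads between it and the other short isoforms is uncertain, its 0 in DMSO included. Its last exon lies over those of NEAT1-201 and NEAT1-207 and ends beyond both. The last 60 bases of the 2 short transcripts that reach furthest are printed 5′ to 3′ from GENCODE, with the polyadenylation signal in capitals where the last 50 bases hold one.
NEAT1-207: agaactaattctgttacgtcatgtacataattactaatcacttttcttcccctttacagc
NEAT1-209: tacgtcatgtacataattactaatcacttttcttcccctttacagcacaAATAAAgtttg
The mix of NEAT1 isoforms was also called changed, with edgeR's diffSpliceDGE test of transcript usage, in which a gene is called at an adjusted p under 0.05 if a transcript's share of the gene's TPM moves by more than 5 percentage points. The adjusted p for the gene was 8.8e-05. The NEAT1-203 share went from 22.7 ± 4.79% to 33.0 ± 0.976%, by 10.3 points (SD, n = 3). Its own adjusted p in diffSpliceDGE was 0.41 and did not pass. The NEAT1-207 share went from 27.2 ± 4.34% to 20.8 ± 0.723% and did not pass either. NEAT1-209, whose share went from 0 in DMSO to 2.11 ± 0.496% in Chelator, did pass by itself (diffSpliceDGE adjusted p = 7.1e-05). Over the series 9.22% of 11938 genes were called for usage, and NEAT1 was the only one of the 6 members with several isoforms that was. It lost the call when any 1 Chelator library was left out, with adjusted p = 0.51, 0.12 and 1.0 without replicates 1, 2 and 3. NEAT1-209, at 0 in DMSO, then no longer reached 10 counts in 3 libraries and was not in the test. The loss therefore cannot show how stable the mix is.

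Genes for the proteins of paraspeckles were mixed. Of 25 with an adjusted p, 6 rose, 7 fell and 12 did not pass, against 19.5% and 18.3% of all genes, and their median log2 fold change was -0.05. The abundant HNRNPA1 (log2 fold change -0.06, adjusted p = 0.56) and HNRNPK (-0.04, adjusted p = 0.71) did not pass. ZC3H6 was the only one called, with a log2 fold change of 1.20 (SE 0.22). The neighbouring protein-coding gene FRMD8, 9249 bases away, rose by 0.60 (SE 0.09).

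MALAT1 (ENSG00000251562.11, chr11:65497640-65508073, plus strand, GRCh38) gave different answers in counts and in TPM. Its estimated counts were 12239, 12908 and 10394 in DMSO and 25745, 24390 and 18770 in Chelator, with the groups apart. Its levels were 129, 189 and 140 TPM in DMSO and 245, 141 and 94.1 TPM in Chelator, where replicate 1 was above and replicate 3 below every DMSO library. With the length offset, the log2 fold change was 0.06 (SE 0.40, 95% interval -0.71 to 0.84, DESeq2 adjusted p = 0.93). Without the offset it was 0.72 (adjusted p = 3.5e-16), and without Chelator replicate 1 it was -0.42 (adjusted p = 0.016), so the gene-level value depends on that setting and on that library.

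Most counts and most TPM belonged to 2 transcripts, named here by the lengths in the files, since 12 of the 16 MALAT1 transcripts there have another version than in the annotation used. The 5340-base transcript ENST00000619449.2 took most counts, with 10085, 9933 and 8384 in DMSO and 21402, 21886 and 17604 in Chelator. Its levels were 29.4, 34.4 and 28.8 TPM against 60.3, 60.6 and 58.7 TPM, with the groups apart and close within each. It rose by 0.91 on the log2 scale (SE 0.04, DESeq2 adjusted p = 9.1e-93), which is under the fold threshold.

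The 480-base transcript ENST00000544868.2 held few counts but, being short, 56.7% to 68.6% of the TPM in DMSO and 22.8% to 51.8% in Chelator. Its counts were 1436, 1889 and 1265 in DMSO and 2283, 1100 and 322 in Chelator, and its levels were 79.2, 129 and 79.5 TPM against 127, 60.5 and 21.4 TPM. On the log2 scale the difference was -0.47 (SE 0.58, adjusted p = 0.69), but leaving out Chelator replicate 1 gave -1.28 (adjusted p = 0.013) and leaving out Chelator replicate 3 gave -0.03 (adjusted p = 0.98). Usage of MALAT1 did not pass (adjusted p = 0.47) although this share moved by 23.1 points, and it was called with limma's diffSplice (adjusted p = 0.0058), and also when Chelator replicate 1 was left out (adjusted p = 0.013). As its share varied, the average length of a MALAT1 transcript went from 1091 ± 80.5 bases in DMSO to 1954 ± 692 in Chelator (SD, n = 3). The transcript of 584 bases (ENST00000610851.1) fell by 0.93 on the log2 scale (SE 0.21, adjusted p = 1.1e-04), with 11.7, 19.002 and 13.0 TPM in DMSO and 7.84, 7.93 and 7.58 TPM in Chelator. The one of 352 bases had 0 to 110 counts in DMSO and 0 to 460 in Chelator and did not pass (0.99, SE 2.36, adjusted p = 0.87). Summed over transcripts of at least 500 bases, an alternative chosen after seeing the data, MALAT1 rose by 0.60 (adjusted p = 3.7e-14). The part of the shorter fragments of the Chelator libraries in the estimate for so short a transcript was not tested.

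**Figure D4:**
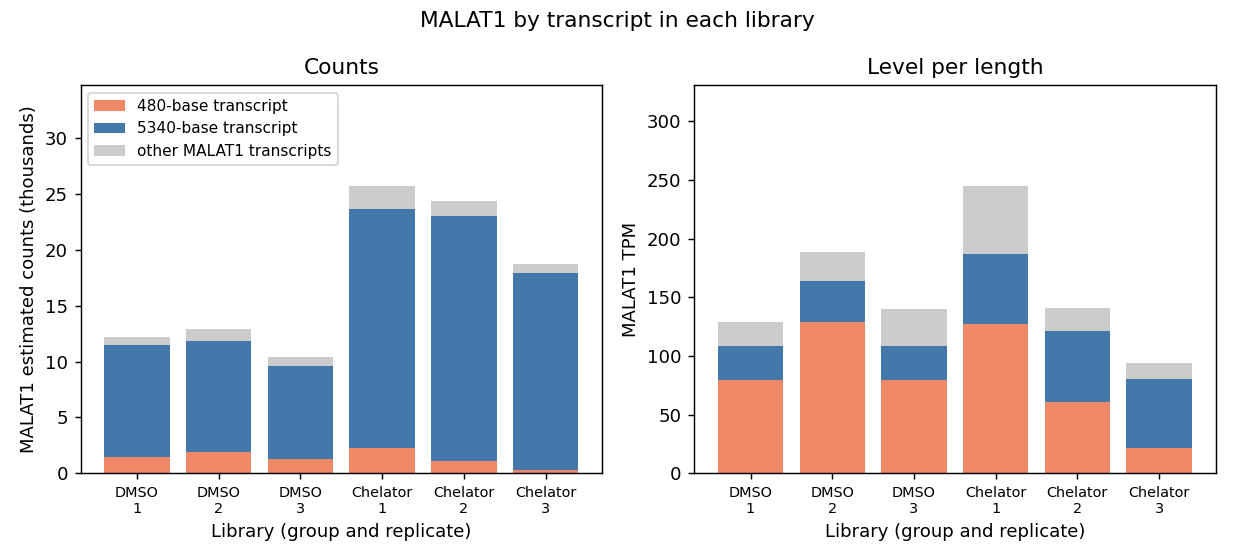
MALAT1 in each library split into its 480-base transcript (orange), its 5340-base transcript (blue) and the others (grey), as estimated counts on the left and as TPM on the right. The blue part of both measures is higher in every Chelator library than in any DMSO library, while the orange TPM runs from 21.4 to 127 among the Chelator libraries.

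TALAM1, an antisense transcript that covers much of MALAT1 on the minus strand, did not pass (log2 fold change 0.14, SE 0.12, adjusted p = 0.40), with counts of 9044 to 12705 in DMSO and 10237 to 17072 in Chelator. Whether the counting used strand is not stated, so reads of the 2 genes may not be told apart. MALAT1 is held in speckles with proteins of splicing, and its end is cut by RNase P and RNase Z. Of 22 genes for those proteins, 14 fell, 1 rose and 7 did not pass, where 18.3% of all genes fell and 19.5% rose, with a median log2 fold change of -0.29 against 0.02 over all genes. SRSF1, a splicing factor, was called lower at -1.02 (SE 0.08), as was POP1, a subunit of RNase P, at -1.46 (SE 0.10). Of the 3 most abundant, SON fell by 0.40 (SE 0.08) and SRRM2 did not pass (-0.06, adjusted p = 0.48), the third being SRSF1.

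MIR210HG (ENSG00000247095.5, chr11:565657-568457, minus strand, GRCh38) rose the most of the 7, 10.8-fold. It had 47, 36 and 29 counts in DMSO and 250, 360 and 310 in Chelator, or 0.356, 0.249 and 0.222 TPM against 2.61, 3.35 and 3.15 TPM. The lowest Chelator value was far above the highest DMSO value. On the log2 scale the rise was 3.43 (SE 0.26, 95% interval 2.92 to 3.94, DESeq2 adjusted p = 1.2e-37) and 2.81 without the length offset. The gene moved from rank 3920 to rank 944 among long noncoding RNA genes, so it remained a minor transcript next to the other 6.

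The microRNA hairpin lies at chr11:568089-568198 on the minus strand, in the intron of all 4 MIR210HG transcripts that had enough counts to examine. Its products, from RefSeq on GRCh38.p14, are printed with the seed, bases 2 to 8, in capitals, since the host transcript is measured here and the microRNAs are not.
hsa-miR-210-3p: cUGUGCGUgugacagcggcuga
hsa-miR-210-5p: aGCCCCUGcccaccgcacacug
The 2 arms have different seeds.

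The start of MIR210HG was searched for ACGTG and GCGTG, the core that HIF binds, on both strands of the 300 bases from 250 before to 50 after the RefSeq start (GRCh38.p14, chr11:568408-568707, minus strand). The window holds 1 ACGTG, in capitals, 170 bases before the start, and 1 GCGTG, and is 80.0% G and C.
MIR210HG: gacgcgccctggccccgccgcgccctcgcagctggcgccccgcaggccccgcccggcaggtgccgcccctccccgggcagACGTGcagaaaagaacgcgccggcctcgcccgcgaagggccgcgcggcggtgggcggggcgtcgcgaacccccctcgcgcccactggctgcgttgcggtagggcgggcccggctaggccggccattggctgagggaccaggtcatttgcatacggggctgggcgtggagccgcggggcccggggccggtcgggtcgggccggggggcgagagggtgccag
Of 35116 promoter windows of this length, 21.4% hold ACGTG and 36.5% GCGTG. Windows were at hand for 5 of the 7 genes, not for NEAT1 or PVT1. Those of NORAD and TUG1 each hold 1 CACGTG, which reads as ACGTG on both strands, 138 and 77 bases before the start. The CYTOR window and the 2 MALAT1 windows hold no ACGTG. The letters GCGTG occur 2 times in the TUG1 window, 1 time in that of NORAD, 2 and 1 times in those of MALAT1 and not in that of CYTOR. A match is a description of the letters only.

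By transcript, MIR210HG-203, of 816 bases, was at 0 throughout DMSO, against 81, 84 and 69 counts in Chelator. It was the only MIR210HG transcript called. MIR210HG-201 had 24, 0 and 28 counts against 72, 148 and 112, and MIR210HG-205 had 17, 36 and 1 against 86, 79 and 101. Their log2 fold changes of 2.34 and 2.07 had SEs of 1.22 and 1.03 and did not pass (DESeq2 adjusted p = 0.19 and 0.16), but both passed without DMSO replicate 2, at 0.0060 and 0.026. MIR210HG-204 had 6, 0 and 0 counts against 6, 42 and 23 and did not pass (log2 fold change 3.20, SE 1.82, adjusted p = 0.24), though it did without DMSO replicate 1, at 0.018. Usage of the gene did not pass (adjusted p = 0.064) and was called without DMSO replicate 2, at 0.025. With at most 2.78% of 31-base stretches particular to any of these transcripts and few DMSO counts, the division of reads among them is uncertain.

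HIF target genes, measured in the same fits, mostly rose. Of 29, 23 rose, 1 fell and 13 were called higher, where 19.5% of all genes rose, 18.3% fell and 8.18% were called higher, with a median log2 fold change of 1.00 against 0.02 over all genes. Among the 3 most abundant, LDHA (lactate dehydrogenase) rose by 1.01 (SE 0.08) and DDIT4, an inhibitor of mTOR signalling, by 2.32 (SE 0.07), while the glycolytic enzyme ENO1 did not pass (-0.07, adjusted p = 0.56). CA9, a carbonic anhydrase, had 0 counts in all DMSO libraries and 226, 208 and 177 in Chelator.

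Genes reported as targets of miR-210 showed both directions. Of 14, 2 rose, 6 fell and 6 did not pass, beside 19.5% and 18.3% of all genes that rose and fell, and the median log2 fold change was -0.16 against 0.02. None was called, beside 8.18% of all genes called higher and 2.6% lower. NDUFA4, a subunit of the respiratory chain, rose by 0.93 (SE 0.12) and E2F3, a cell cycle transcription factor, fell by 0.30 (SE 0.07), while the phosphatase gene PTPN1 was at -0.03 (adjusted p = 0.79). ISCU, the iron-sulfur scaffold and a well-known target, named after its value was seen, was at 0.20 (adjusted p = 0.062). Of 9 genes that make or load microRNAs, 6 fell and none rose, beside 18.3% and 19.5% of all genes, with a median of -0.29 against 0.02. DICER1, which cuts the hairpin, was called lower at -1.08 (SE 0.10), AGO1 fell by 0.93 (SE 0.10), AGO2 by 0.32 (SE 0.10) and the exporter XPO5 by 0.29 (SE 0.07). Of the neighbours of MIR210HG, RASSF7, 1632 bases away, did not pass (0.17, SE 0.11, adjusted p = 0.22) and PHRF1, 8013 bases away, fell by 0.53 (SE 0.07).

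PVT1 (ENSG00000249859.14, chr8:127794526-128187101, plus strand, GRCh38) rose 1.50-fold. Its counts were 2605, 2055 and 2109 in DMSO and 3954, 4694 and 3972 in Chelator, and its levels were 54.1, 53.9 and 52.1 TPM against 77.5, 85.1 and 83.4 TPM. The groups were far apart for their spread, at 0.58 on the log2 scale (SE 0.09, 95% interval 0.41 to 0.76, DESeq2 adjusted p = 5.2e-10). MYC, the nearest tested protein-coding gene, 51575 bases away, fell by 0.28 (SE 0.08, adjusted p = 0.0022).

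The files hold 190 PVT1 transcripts, of which 74 were tested and 55 had an adjusted p. At the adjusted p alone 7 rose and 1 fell, where 10.4% and 10.1% of all transcripts did. Of the 55, 4 were called higher and 1 lower, shares near the 6.61% and 3.39% over all transcripts. The leading isoform PVT1-299 had 18.0, 14.8 and 16.0 TPM in DMSO and 18.5, 20.6 and 19.8 TPM in Chelator and did not pass (log2 fold change 0.21, SE 0.17, adjusted p = 0.47). PVT1-228 rose by 1.00 (SE 0.18), PVT1-313 by 0.95 (SE 0.18) and PVT1-297 by 0.75 (SE 0.19). The fifth, of 876 bases, did not pass (0.45, SE 0.20, adjusted p = 0.10). The PVT1-299 share of PVT1 TPM was 30.5 ± 2.94% in DMSO and 23.9 ± 0.222% in Chelator (SD, n = 3), and usage of the gene did not pass (adjusted p = 0.056). PVT1-351, chosen after its values were seen, had 0 counts in DMSO and 45, 48 and 46 in Chelator. That is at least 13.0-fold higher with DMSO set to 3 counts per library, but PVT1-351 has no 31-base stretch of its own. PVT1-216, chosen likewise, was the one called lower, with 56, 50 and 68 counts in DMSO and 35, 35 and 26 in Chelator (-1.14, SE 0.40, adjusted p = 0.025), and 20.9% of its stretches are its own. Of the 5 leading isoforms, PVT1-297 alone has any 31-base stretch of its own, 1.33%, so reads of these isoforms are divided by estimation.

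CYTOR (ENSG00000222041.13, chr2:87454781-87636740, plus strand, GRCh38) rose 1.39-fold. Its counts were 5767, 5798 and 4930 in DMSO and 7509, 7989 and 6378 in Chelator, and its levels were 109, 100 and 105 TPM against 150, 153 and 146 TPM. The groups did not overlap, and the log2 fold change was 0.48 (SE 0.10, 95% interval 0.29 to 0.67, DESeq2 adjusted p = 6.8e-06). Without the length offset it was 0.17 (adjusted p = 0.024). The average transcript length was 733 ± 114 bases in DMSO and 590 ± 12.4 in Chelator (SD, n = 3).

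Most of CYTOR is also found in another expressed gene. Of its 31-base stretches, 61.9% occur in MIR4435-2HG, a near copy elsewhere on chromosome 2 (chr2:111006015-111523376, minus strand), so the counts of both are uncertain where reads could be split. MIR4435-2HG rose by 0.27 (SE 0.07, adjusted p = 6.7e-04), and the 2 genes summed rose by 0.39. CYTOR-201, of 529 bases and 2 exons, carried 80.7 ± 3.31% of the TPM in DMSO and 84.9 ± 0.528% in Chelator. Its levels were 91.1, 77.2 and 85.6 TPM in DMSO and 127, 129 and 125 TPM in Chelator, so that it rose by 0.53 on the log2 scale (SE 0.14, adjusted p = 0.0020 in DESeq2), and with edgeR the adjusted p was 0.053. The 7512-base CYTOR-216 had 6.08, 8.84 and 6.20 TPM against 6.22, 6.07 and 5.78 TPM and did not pass (-0.25, SE 0.12, adjusted p = 0.13), though it did without the length offset (-0.37, adjusted p = 0.041). CYTOR-201 has no 31-base stretch of its own among CYTOR isoforms, and CYTOR-216 has 73.7%. Usage did not pass (adjusted p = 0.59), but limma's diffSplice gave 4.3e-06 with a change of 4.22 points. The noncoding NCAL1, which overlaps CYTOR on the same strand, was at -0.32 (SE 0.12, adjusted p = 0.019), and LINC01943, on the other strand, did not pass (0.95, SE 0.71, adjusted p = 0.32).

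TUG1 (ENSG00000253352.10, chr22:30969245-30979395, plus strand, GRCh38) was 1.30-fold lower in Chelator. Its counts were 18644, 21160 and 17197 in DMSO and 18291, 17968 and 14876 in Chelator, and its levels were 43.5, 59.0 and 47.6 TPM against 41.1, 38.6 and 37.2 TPM. The lowest DMSO and highest Chelator libraries were close, and in raw counts the groups overlapped. The log2 fold change was -0.38 (SE 0.08, 95% interval -0.54 to -0.22, DESeq2 adjusted p = 1.8e-05), while limma on log2(TPM + 0.1) gave -0.35 with adjusted p = 0.052.

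The main isoform TUG1-217, of 7474 bases, had 22.7, 30.7 and 25.4 TPM in DMSO and 19.9, 18.98 and 18.5 TPM in Chelator and fell by 0.49 (SE 0.08, adjusted p = 1.2e-07). TUG1-206 (-0.40, SE 0.16, adjusted p = 0.058), TUG1-216 (-0.19, SE 0.12, adjusted p = 0.28) and TUG1-210 (0.43, SE 0.31, adjusted p = 0.39) did not pass. TUG1-206 did pass in 4 of 10 alternatives, among them without Chelator replicate 1 (-0.50, adjusted p = 0.0014). The TUG1-217 share moved from 52.5 ± 0.742% to 49.2 ± 0.592%. Usage of the gene passed the p (diffSpliceDGE adjusted p = 0.0015) but not the 5 points. TUG1-217 did not pass by itself in that test, while the minor isoform TUG1-208 did (diffSpliceDGE adjusted p = 6.4e-04). The gene no longer passed when any 1 DMSO library was left out, and still passed without any 1 Chelator library. With a DMSO library left out, TUG1-208 no longer reached 10 counts in 3 libraries and was not in the test. That loss therefore cannot show how stable the mix is. Only 2 minor isoforms were called lower, both chosen after their values were seen. TUG1-208 had 60, 128 and 123 counts in DMSO and 0 in Chelator, at least 41.2-fold lower, and TUG1-202 had 119, 127 and 45 counts against 6, 34 and 26. TUG1-208 has no 31-base stretch of its own and TUG1-202 has 1.44%, so the division of reads among them is uncertain. MORC2, whose start lies 471 bases away on the other strand, fell by 0.46 (SE 0.08), and SMTN, 84710 bases away, did not pass (0.21, SE 0.09, adjusted p = 0.054).

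NORAD (ENSG00000260032.2, chr20:36045618-36051018, minus strand, GRCh38), a single exon of 5401 bases with 1 transcript, was 1.40-fold lower in Chelator. Its counts were the highest of the 7, with 47273, 50726 and 42727 in DMSO and 43001, 39456 and 32592 in Chelator. Its levels were 127, 163 and 135 TPM against 112, 98.8 and 97.1 TPM, with the groups apart. The change was -0.48 on the log2 scale (SE 0.08, 95% interval -0.65 to -0.32, DESeq2 adjusted p = 7.4e-08). Of its 31-base stretches, 55.2% occur in other expressed genes, 2572 in all, so its counts are uncertain where reads could be split. The gene that shares most, with 37.6%, is OVCH1-AS1, which had few counts, between 3 and 16 per library, and a log2 fold change of 0.05 (SE 0.84, adjusted p = 0.97).

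NORAD is known for a long array of sites for Pumilio proteins. A search for TGTANATA, with N any base, on the transcript's own strand found 15 matches in NORAD-201, as many as in only 0.0208% of the 19260 annotated transcripts of 4 to 7 kb, of which 42.2% have at least 1. The first, a middle and the last match are printed with 10 bases on each side and the match in capitals, at transcript positions 819, 2524 and 4657 counted from 1 at the transcript's start.
NORAD 819: ggaaggcctgTGTATATAatatgaaaaa
NORAD 2524: aataacacttTGTAAATAgcttttaaaa
NORAD 4657: ttagcctattTGTAAATAcctttgttat
Among the transcripts of the other members that were searched, the far longer NEAT1-202 holds 6, or 0.264 per kb against 2.78 per kb in NORAD-201. TUG1-217, TUG1-216 and TUG1-210 hold 2 each, and TUG1-206, NEAT1-207 and NEAT1-209 hold 1. MALAT1 transcripts were not searched. PUM2, a Pumilio gene named after its value was seen, fell by 0.37. Of 5 genes for proteins that bind NORAD, 4 fell and none rose, beside 18.3% and 19.5% of all genes, with a median of -0.37 against 0.02. The 3 most abundant were KHDRBS1 at -0.32 (SE 0.07, adjusted p = 6.3e-05), ALYREF at -0.40 (SE 0.07, adjusted p = 6.9e-08) and RBMX, which did not pass (-0.11, SE 0.07, adjusted p = 0.23). EPB41L1, 40486 bases away, rose by 0.76 (SE 0.16), and CNBD2, 14918 bases away, did not pass (0.62, SE 0.52, adjusted p = 0.39).

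Over the 7 genes, 139 transcripts were tested and 109 had an adjusted p, of which 15 rose and 6 fell in DESeq2. Of these 10 were called higher (5 of NEAT1, 4 of PVT1 and 1 of MIR210HG) and 3 lower (2 of TUG1 and 1 of PVT1). Over all 97586 transcripts with an adjusted p, 10.4% rose and 10.1% fell, and 6.61% were called higher and 3.39% lower. Without Chelator replicate 1, 23 were called in place of 13. Isoforms of 1 gene share reads, so these counts are not independent of each other.

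**Figure D5:**
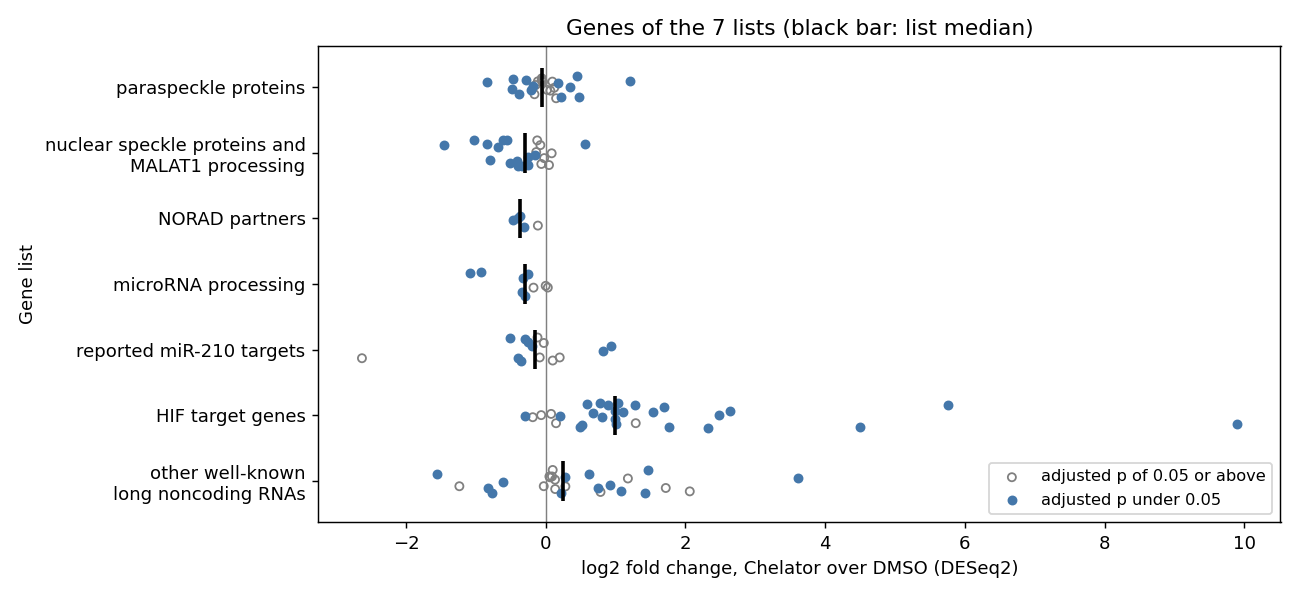
The log2 fold change of each tested gene of 7 gene lists that belong with the 7 long noncoding RNAs, filled where the DESeq2 adjusted p is under 0.05, with a black bar at the list's median. HIF target genes lie mostly to the right with a median of 1.00, the medians of the other lists run from -0.37 for NORAD partners to 0.24 for other well-known long noncoding RNAs, and the point furthest right is CA9, whose fitted value is not a measured fold because it is at 0 in DMSO.

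Other well-known long noncoding RNAs gave no common direction. Of 26 with an adjusted p, 9 rose, 4 fell and 13 did not pass, with 4 called higher, 1 called lower and a median of 0.24. Over all long noncoding RNA genes 10.9% rose, 7.1% fell, 6.38% were called higher and 3.05% lower, and the median was 0.05. The 3 most abundant were OIP5-AS1, which rose by 0.22 (SE 0.08, adjusted p = 0.023), TALAM1 and the imprinted H19, which did not pass (0.13, SE 0.10, adjusted p = 0.34). LUCAT1, a stress-induced transcript, had the largest called rise, with 33, 17 and 9 counts in DMSO and 246, 219 and 212 in Chelator (3.61, SE 0.39), and MIR193BHG, a microRNA host, had the largest called fall, with 232, 280 and 259 against 136, 121 and 91 (-1.55, SE 0.24).

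Genes whose log2 normalized counts followed each member most closely over the 6 libraries were WBP1 and EDF1 for NEAT1, RTN2 and RAC2 for MIR210HG, COPE and RAB4B for PVT1, NDUFB11 and GTSF1 for CYTOR, TPR and PAN3 for TUG1, and KTN1 and SAMD4B for NORAD, with Pearson r of at least 0.9978. The 6 libraries are 2 groups of 3, so any gene that differs between groups follows such a pattern, and 551 to 1351 genes had r of 0.95 or more with each of these members. MALAT1 had 8 such genes, led by CAMSAP2 with r of 0.985 and USP8 with 0.981, which have log2 fold changes of -0.02 and 0.02.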

How the data were processed

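Polyadenylated RNA of K562 cells was sequenced by the authors, who quantified transcripts with Salmon 1.10.2 and, for splicing not used here, mapped reads to hg38. Each deposited file covers 1 library and lists, for 252045 transcripts, the authors' estimated count, its TPM, and its length and effective length in bases. The annotation behind them and any use of strand are not given in the sources used here. Group and replicate came from the sample labels. The 7 genes and all gene lists were chosen with earlier results of these data known.

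Identifiers were looked up in GENCODE release 44 (GRCh38): 251142 had the same version and length, 470 another version, and 433 were unmatched, with 0.139% to 0.150% of counts. All transcripts of the members matched in full except 12 of 16 of MALAT1. Estimated counts were summed per gene and rounded, and genes with a total above 10 entered DESeq2 1.42.0 (R 4.3.3, Wald test, median-ratio size factors, average transcript length as offset, Benjamini-Hochberg adjustment). Transcripts were tested alike, with effective length as offset. Usage was tested with edgeR 4.0.16 (diffSpliceDGE, on transcripts that reached 10 counts in 3 or more libraries), and limma 3.58.1 gave alternatives. Scripts were tested on simulated data, where the usage test at the adjusted p alone made false calls beyond its threshold and the other tests did not. Lower bounds set a group at 0 to 3 counts per library and, like all count-based limits here, cover counting error only. Named transcripts held at least 5% of their gene's TPM in either group, at most 6 a gene. Named neighbours were the nearest tested protein-coding genes within 100 kb and overlapping genes with a mean of at least 10 normalized counts. Genes of like pattern came from those with a mean of at least 500 normalized counts. From each list the 3 with most counts and the largest called rise and fall were named. A few genes that these rules select are not reported here.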

Additional observations from a re-analysis of the deposited data

How the results depend on the processing

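Over the series 2646 genes were called, against 9260 without the fold threshold and 674 when tested against a log2 fold change of 1, and of the 7 members 2 were called, against 6 and 1. The called genes were 75.9% higher, against 58.7% with centring on the mean log2 change of all genes (a shift of 0.18), 51.6% without the fold threshold and 91.2% when tested against it. NEAT1 and MIR210HG kept their direction in each of 18 alternatives and PVT1, TUG1, NORAD and CYTOR in theirs, with log2 fold changes of 1.43 to 1.76, 1.66 to 3.70, 0.41 to 0.67, -0.56 to -0.34, -0.66 to -0.44 and 0.17 to 0.55. MALAT1 changed sign: it was -0.11 when centred, -0.060 with the replicate block, -0.023 with limma on log2(TPM + 0.1), -0.022 on log2(TPM + 1), and -0.42 to 0.34 with 1 library left out. MALAT1-216, a 352-base transcript with 0 to 460 counts, ran from -3.23 to 2.35 with 1 library left out. The cause was not tested. Leaving out 1 library left 10 to 23 member transcripts called in place of 13, with 23 without Chelator replicate 1, and 0 to 2 genes called for usage in place of 1. Usage was called in 2 members without the minimum change of share and in 2 with limma's diffSplice.

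Deviations of replicates of the same number from their group means correlated at -0.07, 0.13 and 0.10. Replicates 2 and 3 correlated best with their own number and replicate 1 did not, so the numbers were not taken to pair the samples. With the replicate block 2345 genes were called over the series, and 2 member genes, 13 member transcripts and 1 member for usage, the numbers found without it. PVT1-297 had an adjusted p of 0.072 under the block.

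Low counts limit MIR210HG most, with 29 to 47 counts in DMSO, and shared sequence limits the split among isoforms of NEAT1, MIR210HG, PVT1, CYTOR and TUG1. Alternatives that summed MALAT1 with TALAM1 (log2 fold change 0.07) or used transcripts of at least 500 bases were chosen after seeing the data.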
